A study of Homo sapiens with 3 samples.

Results

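Pseudogenes carried 1712 of the 119066 RBM17 eCLIP clusters that were listed for replicate 2. They were taken as every cluster whose gene, given in the cluster's name as an Ensembl identifier, has a GENCODE v44 gene type that contains the word pseudogene. They belonged to 322 of the 10872 genes with a cluster and lay at 1687 separate intervals, since some intervals were listed for more than 1 pseudogene. To these were added the 586 replicate 1 clusters, of 137095, that overlapped them by at least 1 bp on the same strand, and the 20 reproducible peaks, of 866, that did so.

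RBM17 eCLIP was carried out in K562 cells, a human chronic myelogenous leukemia cell line, with 2 RBM17 samples (replicates 1 and 2) and 1 size-matched input, all from cells crosslinked with UV light of 254 nm at 400 mJ/cm2. RBM17 was precipitated with 10 μg of a mixture of 2 antibodies, the input was 2% of the sample taken before the washes, and RNA from 50 to 125 kDa was cut from the gel for paired-end sequencing of 75 bases. No knockdown and no untreated group was part of the eCLIP data, all cells were of 1 line, and the study calls the replicates biological without saying whether they came from separate cultures. Replicate 1 was deposited with a log2 fold and a −log10 p over the input, replicate 2 with reads and a p of the peak caller alone. The input is seen only through the folds, so no value has a replicate error and no test between conditions was possible. The erythroleukemic markers GATA1, TAL1, KLF1, HBG1, HBG2 and TFRC all had clusters, and CD3E, MS4A1, ALB and COL1A1, markers of other cell types, had 0.

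Pseudogenes are copies of genes that no longer make the original product. A processed pseudogene is a copy of a spliced mRNA that was reverse transcribed and inserted elsewhere, so it has no introns of its parent gene, whereas an unprocessed pseudogene came from a duplication of DNA and can keep the introns and splice sites of its parent. A unitary pseudogene is a gene that lost its function without a working copy, and an rRNA pseudogene is a copy of a ribosomal RNA gene. RBM17 is an RNA-binding protein of the spliceosome that takes part in the choice of 3' splice sites, and eCLIP maps where such a protein was crosslinked to RNA.

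The clusters differed in how closely their gene resembles its parent, which decides whether a read can be placed, so some of the sequences are shown first. They are of pseudogenes that had a reproducible peak or a replicate 1 cluster with a high fold, each above its best-matching protein-coding transcript. Each pair is the first stretch of 100 bases without a gap within the coding bases of that transcript, from the GENCODE v44 transcripts, and capitals mark the bases of the pseudogene that differ. These stretches show likeness and are not the places of the clusters. The clusters are in hg19 and the annotation in hg38, so whether a cluster lies in an exon or an intron of its pseudogene was not determined.
DDX12P: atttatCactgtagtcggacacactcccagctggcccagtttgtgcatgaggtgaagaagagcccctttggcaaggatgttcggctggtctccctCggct
DDX11: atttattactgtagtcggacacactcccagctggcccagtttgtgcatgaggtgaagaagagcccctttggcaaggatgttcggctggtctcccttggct
NSUN5P1: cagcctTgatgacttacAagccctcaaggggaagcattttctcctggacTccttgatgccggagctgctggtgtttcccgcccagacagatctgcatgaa
NSUN5: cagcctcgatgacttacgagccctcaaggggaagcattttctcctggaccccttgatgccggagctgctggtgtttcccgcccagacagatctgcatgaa
SDHAP2: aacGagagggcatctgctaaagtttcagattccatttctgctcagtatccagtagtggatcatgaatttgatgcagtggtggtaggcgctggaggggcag
SDHA: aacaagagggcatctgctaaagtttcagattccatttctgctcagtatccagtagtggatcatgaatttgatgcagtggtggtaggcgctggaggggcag
SLC7A5P2: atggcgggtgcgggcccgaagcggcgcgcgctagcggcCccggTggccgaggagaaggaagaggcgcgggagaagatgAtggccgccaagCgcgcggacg
SLC7A5: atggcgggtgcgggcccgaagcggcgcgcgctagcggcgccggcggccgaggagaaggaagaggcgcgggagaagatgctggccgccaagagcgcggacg
MTCYBP36: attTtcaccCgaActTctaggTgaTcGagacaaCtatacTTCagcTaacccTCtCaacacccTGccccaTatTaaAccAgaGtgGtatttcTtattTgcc
MT-CYB: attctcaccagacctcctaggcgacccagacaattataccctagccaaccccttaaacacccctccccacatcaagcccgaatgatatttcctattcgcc
In these stretches the duplicated copies DDX12P, NSUN5P1 and SDHAP2 differed from their parents by 2, 3 and 1 bases. The processed copy SLC7A5P2 differed by 4, and MTCYBP36, a nuclear copy of the mitochondrial cytochrome b gene, by 25. These counts do not rank the copies by likeness to their parents. Over all aligned bases SLC7A5P2 was 96.3% identical to its parent, above DDX12P, NSUN5P1 and SDHAP2, which were at 93.5% to 95.5%.

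The pseudogenes of the 5 pairs lie in hg38 at chr12:9418673-9448229 (DDX12P, ENSG00000214826, − strand), chr7:75410368-75416597 (NSUN5P1, ENSG00000223705, + strand), chr3:195658096-195685904 (SDHAP2, ENSG00000215837, + strand), chr16:21519830-21520365 (SLC7A5P2, ENSG00000258186, − strand) and chr6:94446740-94447179 (MTCYBP36, ENSG00000216853, − strand). ENSG00000235592 (chrX:13327937-13329867, + strand), which GENCODE lists without a symbol, had more peaks than any other pseudogene and no protein-coding parent was found for it. The first 200 of the 739 bases of its transcript, of which 50.7% are G or C, read as follows.
ENSG00000235592: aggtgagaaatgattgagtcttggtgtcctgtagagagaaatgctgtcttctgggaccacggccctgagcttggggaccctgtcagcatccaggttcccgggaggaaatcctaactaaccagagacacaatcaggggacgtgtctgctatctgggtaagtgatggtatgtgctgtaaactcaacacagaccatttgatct

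Unprocessed pseudogenes held most of the clusters. The 1712 clusters were divided into 1295 in 195 unprocessed pseudogenes, 205 in 69 processed pseudogenes, 165 in 24 unitary pseudogenes and 47 in 34 rRNA pseudogenes. The largest GENCODE type was the transcribed unprocessed pseudogene, for which there is evidence of transcription, with 1124 clusters in 147 genes. Transcribed processed pseudogenes had 148 clusters in 27 genes, processed pseudogenes without that mark 57 clusters in 42 genes, and unprocessed pseudogenes without it 171 clusters in 48 genes. All 24 unitary pseudogenes with a cluster were of the transcribed type.

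Few of the annotated pseudogenes had a cluster. It was 322 of 15233 pseudogenes of any type, or 2.11% (exact Clopper-Pearson 95% interval 1.89% to 2.35%, which like all intervals here covers counting error only). For processed pseudogenes the share was 69 of 10660, or 0.647% (0.504% to 0.818%), and for unprocessed pseudogenes 195 of 3570, or 5.46% (4.74% to 6.26%). The difference, processed minus unprocessed, was −4.81 percentage points (Newcombe 95% interval −5.62 to −4.10). Within both classes the transcribed types had the larger share, 5.27% (3.50% to 7.58%) of 512 transcribed processed against 0.414% (0.299% to 0.559%) of 10146 other processed pseudogenes, and 15.3% (13.1% to 17.7%) of 961 transcribed unprocessed against 1.84% (1.36% to 2.43%) of 2609 other unprocessed pseudogenes. For comparison, 4.06% of 18866 lncRNA genes and 45.3% of 20046 protein-coding genes had a cluster. A pseudogene that is in GENCODE v44 but was not in the annotation of the peak caller could not be listed, which lowers these shares by an amount that was not measured. The classes with a cluster also differed in median v44 span, 1347 bases in processed and 10627 in unprocessed pseudogenes. Within a same-strand protein-coding or lncRNA gene lay 27 of 69 processed and 129 of 195 unprocessed ones. Clusters were spread over more than the v44 span in 0 processed and 55 unprocessed ones. What these add to the difference was not tested.

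**Figure D1:**
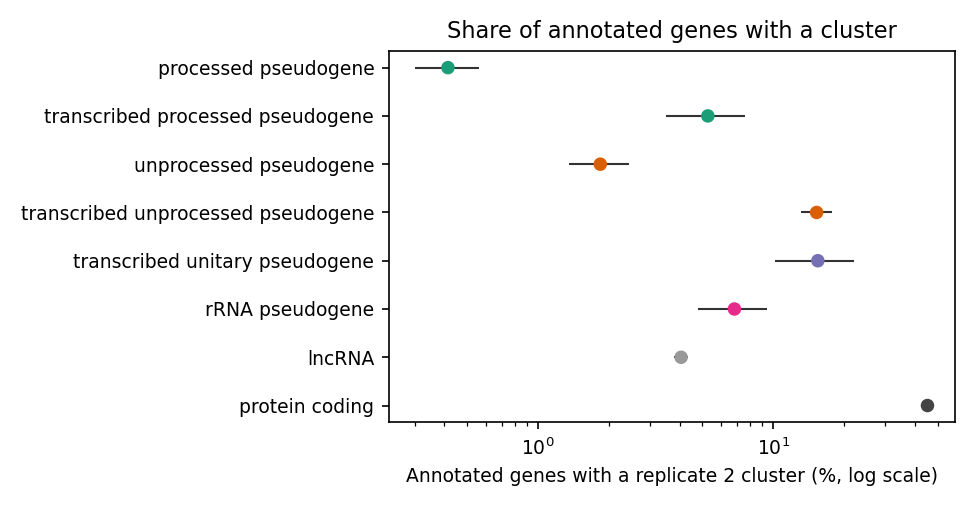
Share of the annotated genes of each GENCODE type that had 1 or more replicate 2 clusters, in percent on a log scale, with exact 95% intervals as bars. Transcribed unprocessed (15.3%) and transcribed unitary pseudogenes (15.5%) had the largest shares among pseudogenes, below protein-coding genes (45.3%).

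The reads were distributed in another way than the clusters. With each interval counted once, the pseudogene clusters summed to 39096 reads, or 2.93% of the 1336569 reads of all replicate 2 clusters. Of these, 26563 reads (67.9%) were in the 34 rRNA pseudogenes, 9099 in unprocessed, 2235 in unitary and 1221 in processed pseudogenes. The reads of a cluster depend on how much of the RNA the cells held, and only the fold is relative to the input. RNA5SP202 alone had 24302 reads, and without it the pseudogene clusters held 1.11% of all reads. The median cluster had 4 reads in processed, 5 in unprocessed, 6 in unitary and 29 in rRNA pseudogenes, and 833 of the 1712 clusters (48.7%) had under 5 reads, near the 48.1% of all clusters. Replicate 1 and the peaks have no read numbers, so their depth is unknown. Adjoining clusters of a gene can hold the same reads, so a sum over clusters can count a read more than once, and 23 pseudogenes had clusters that adjoin directly.

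Of the 1712 pseudogene clusters, 589 (34.4%, 32.2% to 36.7%) overlapped a replicate 1 cluster on the same strand, against 31.9% of all replicate 2 clusters and 31.8% of those in protein-coding genes. On the opposite strand only 1 (0.0584%) did. The share was 30.2% (24.0% to 37.0%) in processed, 33.7% (31.1% to 36.3%) in unprocessed and 28.5% (21.7% to 36.0%) in unitary pseudogenes, and their intervals overlap. The rRNA pseudogenes stood apart with 44 of 47 clusters (93.6%, 82.5% to 98.7%). Counted by gene, 181 of the 322 pseudogenes (56.2%, 50.6% to 61.7%) had a cluster in both replicates, which were 31 processed, 106 unprocessed, 13 unitary and 31 rRNA pseudogenes.

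Processed and unprocessed pseudogenes were then compared at like numbers of reads. The difference over all clusters, processed minus unprocessed, was −3.42 percentage points (−9.86 to 3.64), an interval that includes 0. Among clusters of 3 to 4 reads 19.1% of 131 processed and 18.9% of 647 unprocessed clusters had a replicate 1 cluster, a difference of 0.228 points (−6.40 to 8.31). With 5 to 9 reads the shares were 36.7% of 49 and 36.2% of 437, a difference of 0.579 points (−12.3 to 15.2). With 10 to 29 reads they were 71.4% of 21 and 71.4% of 189, and the interval of the difference ran from −22.2 to 16.3 points. The intervals are wide because processed pseudogenes had few clusters, and clusters of 1 gene are not independent.

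**Figure D2:**
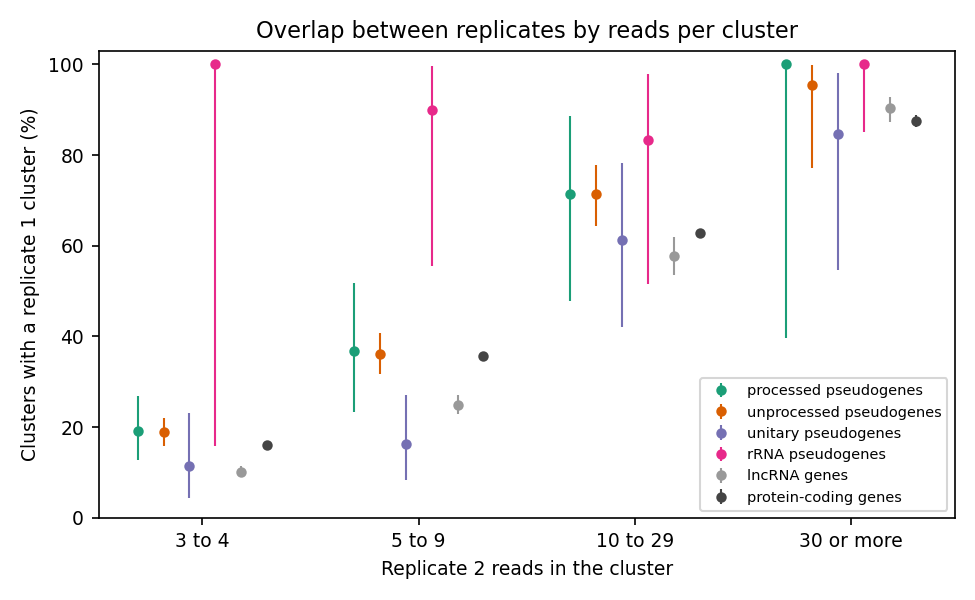
Share of replicate 2 clusters with a same-strand replicate 1 cluster, in percent, by the reads of the cluster, for each pseudogene class and for lncRNA and protein-coding genes, with exact 95% intervals as bars. Processed and unprocessed pseudogenes went from 19.1% and 18.9% at 3 to 4 reads to 71.4% at 10 to 29 reads. The rRNA pseudogenes were at 83.3% or more in every bin, but with only 2, 10, 12 and 23 clusters. Their interval at 3 to 4 reads was 15.8% to 100%.

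The 34 rRNA pseudogenes were high in reads and mostly low over the input. All but 1 (RNA5-8SP6) are copies of 5S rRNA, the small RNA of the large ribosomal subunit. The identity to 5S was 82.4% to 100% over the aligned bases, for alignments of at least 50 bases. An identity of 100% could cover only part of a gene, down to 50 of 123 bases. The replicate 1 clusters that overlapped them had a median log2 fold over the input of −0.93, and 34 of 47 (72.3%, 57.4% to 84.4%) were below 0, against 17.3% of all replicate 1 clusters that overlap a replicate 2 cluster. By gene, the median fold was below 0 in 21 and above 0 in 10 of the 31 rRNA pseudogenes with a replicate 1 cluster. Across 30 of them the identity to 5S over the aligned bases and the median fold had a Spearman correlation of 0.03. It is given as a description across genes that share 1 library and nearly 1 sequence, and partial alignments count as full ones do.

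RNA5SP202 (ENSG00000201185), which had the most reads of all pseudogenes, had 9 adjoining clusters over 85 bp. Their reads in replicate 2 were 3923, 4402, 4509, 5717, 2383, 1319, 1225, 441 and 383, from the first to the last. The largest of them exceeded the 1296 reads summed for RNA5SP149, next in the order. The 4 replicate 1 clusters there had log2 folds of −2.93 to −2.64, so the input was higher at all of them. Of the 75-base windows of RNA5SP202, 60% occur once in hg38, so reads of other 5S copies cannot always be told apart from its own.

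RNA5SP149 (ENSG00000201822) was second with clusters of 633 and 663 reads, and its 6 replicate 1 clusters had log2 folds of −0.80 to −0.44. RNA5SP370 had 174 reads and a median log2 fold of −1.01. The working 5S gene RNA5S9 had 1 cluster of 269 reads, with a replicate 1 log2 fold of −2.61. Reads of 5S copies cannot always be told apart, so these read numbers do not rank working 5S genes against pseudogenes. The 3 rRNA pseudogenes with most reads thus all had folds below 0.

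RNA5SP399 (ENSG00000200873), the only rRNA pseudogene with a reproducible peak, went the other way. Its 1 cluster had 21 reads in replicate 2, and the replicate 1 cluster had a log2 fold of 4.74 with a −log10 p of 12.9. The reproducible peak of 28 bp had a log2 fold of 4.36 over both replicates. All of its 75-base windows occur once in hg38. The 4 next highest were RNA5SP48 (log2 fold 2.51, 5 reads), RNA5SP352 (2.47, 29 reads), RNA5SP442 (1.47, 8 reads) and RNA5SP387 (1.26, 148 reads), and the other 5 above 0 had median log2 folds of 0.13 to 1.19. RNA5SP48, RNA5SP352, RNA5SP442, RNA5SP387 and RNA5SP370 were chosen after their values were seen.

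Outside the rRNA class the folds over the input lay mostly above 0. The median log2 fold of the overlapping replicate 1 clusters was 1.19 in unprocessed (interquartile range 0.24 to 2.19), 1.19 in unitary (0.34 to 1.83) and 0.68 in processed pseudogenes (0.19 to 2.12), beside 1.36 in protein-coding and 0.68 in lncRNA genes. Folds below 0 were found for 68 of 431 (15.8%) unprocessed, 6 of 45 (13.3%) unitary and 13 of 65 (20.0%) processed clusters, beside the 17.3% over all overlapping clusters. With few reads the fold takes few values: the 586 clusters had 196 distinct folds, and the most frequent one, 0.19, was that of 38.

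**Figure D3:**
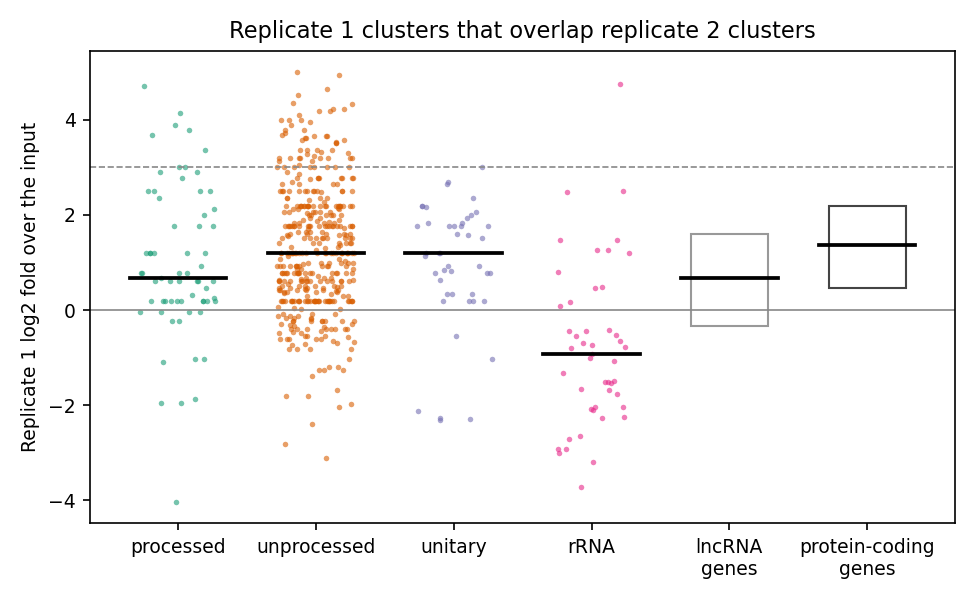
Log2 fold over the input of each replicate 1 cluster that overlaps a replicate 2 pseudogene cluster, by class, with the median as a black bar, and the median and interquartile range (box) for lncRNA and protein-coding genes. The solid line is at 0 and the dashed line at 3, and the rRNA points have their median at −0.93 with 1 point, RNA5SP399, at 4.74.

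A log2 fold of at least 3 with a −log10 p of at least 3 was reached by 37 of the 586 replicate 1 clusters (6.31%, 4.48% to 8.60%), against 5.35% of all replicate 1 clusters and 7.70% of those that overlap any replicate 2 cluster. The share of the pseudogenes was thus near the background. Of the 37, 32 were in unprocessed pseudogenes, 3 in the processed pseudogene SMPD4BP and 1 in RNA5SP399. The remaining 1 overlaps clusters listed for both the unprocessed SMG1P3 and the processed SLC7A5P2. By class it was 33 of 431 (7.66%, 5.33% to 10.6%) in unprocessed and 4 of 65 (6.15%, 1.70% to 15.01%) in processed pseudogenes, and 0 of 45 in unitary ones, with an exact upper bound of 7.87%. The interval of the processed class holds the value of the unprocessed class.

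Reproducible peaks were those the authors called in both replicates, all with a log2 fold and a −log10 p over 3. Each has 1 fold for both replicates together, called pooled here, and the list does not show how the replicates were combined. At the NSUN5P1 peak, for example, the −log10 p was that of replicate 1 alone (3.85). The 20 peaks in pseudogenes were 2.31% (1.42% to 3.54%) of all 866 and lay in 14 pseudogenes, 4.35% (2.40% to 7.19%) of 322, against 4.06% of all genes with a cluster. By cluster, 21 of 1712 (1.23%) had a peak, against 0.739% of all clusters. Of the 20, 16 had their largest overlap with an unprocessed pseudogene, 2 with the processed MTCYBP36, 1 with the unitary AHSA2P and 1 with RNA5SP399. By gene, 10 of 195 unprocessed (5.13%, 2.49% to 9.23%) and 2 of 69 processed pseudogenes (2.90%, 0.353% to 10.1%) had a peak, a difference, processed minus unprocessed, of −2.23 points (−6.79 to 5.21). The 2 processed ones were MTCYBP36, a copy of a mitochondrial gene, and SLC7A5P2. The SLC7A5P2 peak also overlaps a cluster listed for the unprocessed SMG1P3, with which it is counted among the 16. In v44 the spans of SMG1P3 and SLC7A5P2 do not overlap. The log2 folds of the 20 ran from 3.03 to 4.84 with a median of 3.50, beside 3.80 for all peaks.

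**Figure D4:**
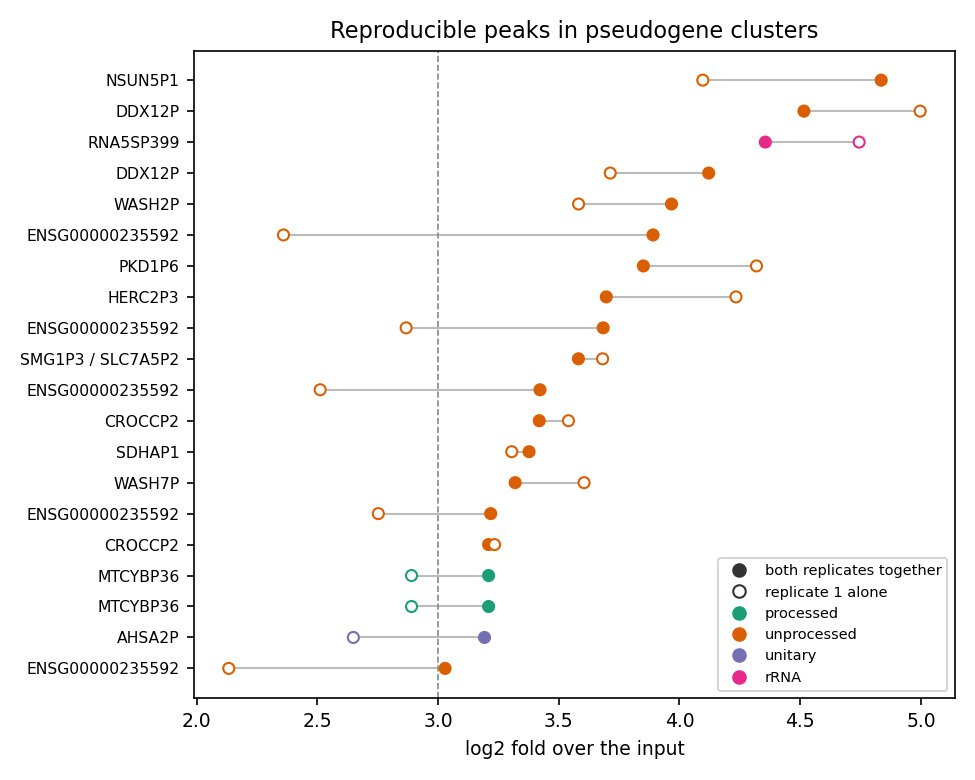
The 20 reproducible peaks, each named by its pseudogene, coloured by class and with a dashed line at 3. Filled points are the log2 fold listed for both replicates together. Open points are that of the replicate 1 cluster that overlaps the peak most. The pooled folds run from 3.03 to 4.84, and for 8 peaks, 5 of them in ENSG00000235592, replicate 1 alone was under 3.

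ENSG00000235592 held 5 of the 20 peaks and 711 reads, the most of any unprocessed pseudogene. Its 6 clusters on chromosome X had 70, 111, 174, 94, 113 and 149 reads in replicate 2, in order of position. For all but the cluster of 94 reads, replicate 1 had a cluster too, with log2 folds of 2.75, 2.36, 2.51, 2.13 and 2.87, and the peaks had pooled log2 folds of 3.22, 3.89, 3.42, 3.03 and 3.68. Replicate 1 was lower than the pooled value at all 5. All of its 75-base windows occur once in hg38, so these reads could be placed without a second copy. Without this gene, 11 peaks in 9 unprocessed pseudogenes remained, and the share of unprocessed clusters with a replicate 1 cluster was 33.4% in place of 33.7%.

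DDX12P, a duplicate of the helicase gene DDX11, had the highest replicate 1 fold of all pseudogenes. The replicate 1 cluster at chr12:9570929-9570999 in hg19 (− strand) had a log2 fold of 4.997 with a −log10 p of 8.05. The replicate 2 cluster that overlaps it had 10 reads, and the peak had a log2 fold of 4.52. A second peak, at chr12:9571105-9571168, overlapped a replicate 2 cluster of 31 reads and had a replicate 1 log2 fold of 3.71 and a pooled one of 4.12. In all, 12 of its 14 clusters had a replicate 1 cluster. The related DDX12B, 97.8% identical to DDX11 over the aligned bases, had 91 reads in 15 clusters, 1 replicate 1 cluster at a log2 fold of 4.36 and no peak. DDX11 itself had 158 reads in 20 clusters, a median replicate 1 log2 fold of 2.13 and no peak, and only 41.8% of the windows of DDX12P and 51.9% of those of DDX12B occur once in hg38.

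NSUN5P1, a duplicate of the rRNA methyltransferase gene NSUN5, had the peak with the highest pooled log2 fold, 4.84 (chr7:75045159-75045216 in hg19, + strand). The cluster had 32 reads in replicate 2 and a log2 fold of 4.10 with a −log10 p of 3.85 in replicate 1. The other 6 of its replicate 1 clusters were at −0.40 to 1.83. NSUN5 had 64 reads, a median replicate 1 log2 fold of 2.58 and no peak, and 24.6% of the windows of NSUN5P1 occur once in hg38.

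The copies of SDHA, the flavoprotein subunit of succinate dehydrogenase, were among the pseudogenes with most high folds. SDHAP1, SDHAP2, SDHAP3 and SDHAP4 together had 61 clusters and 415 reads, 33 clusters with a replicate 1 cluster and 7 replicate 1 clusters past a log2 fold of 3. The highest was in SDHAP2, at a log2 fold of 4.94 with a −log10 p of 7.74, where replicate 2 had 4 reads. SDHAP1 had 5 such clusters, at log2 folds of 4.00, 3.89, 3.36, 3.31 and 3.05, and the group's 1 peak (chr3:195710993-195711072 in hg19, − strand, log2 fold 3.38). SDHA had 127 reads in 15 clusters, a median of 2.36 and no peak, and 38.4% to 81.8% of the windows of the 4 copies occur once in hg38. For SDHAP2, 10 of 18 clusters were also listed for MUC20-OT1, a lncRNA gene in which it lies.

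WASH7P, WASH2P and WASH3P are copies of WASHC1, a subunit of the WASH complex that promotes actin branching on endosomes. WASH2P had a peak with a pooled log2 fold of 3.97 and 24 reads, and its replicate 1 cluster was at 3.58. WASH7P had a peak at 3.32 with 33 reads, and its replicate 1 cluster was at 3.60 with a −log10 p of 12.8. WASH3P had no peak and 2 replicate 1 clusters past the rule, the higher at 4.19 with 3 reads in replicate 2. The windows found once in hg38 were 6.69% in WASH7P, 22.4% in WASH3P and 34.7% in WASH2P. They were counted over the whole gene and not at the clusters, so whether these values belong to 1 copy was not determined. WASHC1 had 33 reads in 6 clusters.

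CROCCP2, a duplicate of CROCC, which encodes the ciliary rootlet protein rootletin, had 441 reads in 34 clusters of 4 to 27 reads. Of these 19 had a replicate 1 cluster, with log2 folds of −0.81 to 3.54 and a median of 2.14. Its 2 peaks had pooled log2 folds of 3.42 and 3.21 and replicate 1 log2 folds of 3.54 and 3.23. CROCC had 32 reads in 7 clusters, so the pseudogene had more reads than its parent.

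Of the duplicates with 1 peak each, PKD1P6, a copy of the polycystin gene PKD1, had a pooled log2 fold of 3.85 and replicate 1 log2 folds of up to 4.65 in 14 clusters. For PKD1P6, 10 of 24 replicate 2 clusters were also listed for NPIPP1 or PKD1P6-NPIPP1. HERC2P3, a copy of the ubiquitin ligase gene HERC2, had a peak at 3.70 and 3 replicate 1 clusters past the rule, at 4.23, 4.23 and 4.00. SMG1P3, a copy of SMG1, the kinase that phosphorylates UPF1 in nonsense-mediated decay, had a peak at 3.58 (chr16:21531553-21531649 in hg19, − strand). That interval overlaps the only cluster of SLC7A5P2, a processed copy of the amino acid transporter gene SLC7A5, with 34 reads listed for SMG1P3 and 26 for SLC7A5P2 and a replicate 1 log2 fold of 3.68. In v44 the 2 genes do not overlap, at chr16:21447078-21501886 (SMG1P3) and chr16:21519830-21520365 (SLC7A5P2) in hg38. The SMG1P3 clusters were spread over 65734 bp, more than its v44 span of 54809 bp. The peak may thus lie outside the v44 SMG1P3. The windows found once in hg38, over the whole gene, were 8.28% in SMG1P3, 13.9% in HERC2P3 and 51.1% in PKD1P6. Whether reads of other copies are among those at their clusters was not determined. CCDC144NL had no peak and 3 replicate 1 clusters past the rule, at 4.19, 4.00 and 3.94, with 5, 8 and 4 reads in replicate 2.

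The unprocessed pseudogenes with most reads after ENSG00000235592 and CROCCP2 were FAR2P4, TPTEP1 and TSSC2, none with a peak. FAR2P4 had 407 reads in 20 clusters and a median replicate 1 log2 fold of 0.54, and 12 of the 20 intervals were also listed for PLEKHB2, in which it lies. TPTEP1 had 396 reads in 42 clusters and a median of 0.29, and TSSC2 had 301 reads in 31 clusters and a median of 0.13. The clusters of TPTEP1 were spread over 51691 bp, where its v44 gene spans 1701 bp. Those of TSSC2 were spread over 24746 bp against 7052 bp, so clusters of both lie in part outside the v44 pseudogene. The highest folds of FAR2P4, TPTEP1 and TSSC2 were 2.69, 2.65 and 1.87. Of the 5 unprocessed pseudogenes with most reads, CROCCP2 was the only one with replicate 1 clusters past the rule, 4 of 19.

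Processed pseudogenes had few reads throughout. The 5 with most were SMPD4BP (136 reads in 28 clusters), ZNF37BP (106 in 9), ENSG00000230021 (96 in 14), ABCA11P (74 in 17) and TUFMP1 (72 in 4), of which all but TUFMP1 are of the transcribed type. SMPD4BP matches the sphingomyelinase gene SMPD4 at 98.1% over 1476 aligned bases, 39.0% of its transcript. It was the only processed pseudogene with replicate 1 clusters past the rule over an interval of its own. They were at log2 folds of 4.71, 4.14 and 3.89 with 5, 7 and 7 reads in replicate 2, and SMPD4BP had no peak. SMPD4 had 97 reads in 23 clusters, a median replicate 1 log2 fold of 1.77 and no peak. SMPD4BP spans 28761 bases in hg38, longer than its transcript of 3785 bases, so its gene model has introns although its type is that of a spliced copy. The same held for ZNF37BP (39323 against 8637 bases), ENSG00000230021 (241726 against 1702) and ABCA11P (48695 against 2110). TUFMP1 spans the 1347 bases of its transcript. The processed class is thus not a class of intronless gene models only.

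ZNF37BP, related to the zinc finger gene ZNF37A, had replicate 1 log2 folds of 0.19 to 1.19. ENSG00000230021 had a median of 0.40, and TUFMP1, an intronless copy of the mitochondrial elongation factor gene TUFM, had 1 replicate 1 cluster at 0.25. None of the 17 clusters of ABCA11P had a replicate 1 cluster, and all 17 intervals were also listed for the zinc finger gene ZNF721. Such shared intervals were frequent, with 52 of the 205 processed clusters (25.4%) at an interval also listed for another gene, against 212 of 1295 (16.4%) unprocessed and 0 of 47 rRNA pseudogene clusters.

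MTCYBP36 was the only pseudogene of the processed class with peaks in clusters of its own. It counts as processed by its GENCODE type, although its parent is a mitochondrial gene. Its 2 clusters on chromosome 6 adjoin (chr6:95156834-95156844 and chr6:95156845-95156861 in hg19, − strand), each with 31 reads in replicate 2. Both overlap replicate 1 clusters with a log2 fold of 2.89 and a −log10 p of 5.06, and both peaks had a pooled log2 fold of 3.21, so the 2 peaks are 1 place. MT-CYB, at 70.4% identity over the 334 aligned bases, had 256 reads in 7 clusters with a median replicate 1 log2 fold of −3.22. All windows of MTCYBP36 occur once in hg38. Without the copies of mitochondrial genes, 1 peak in 1 processed pseudogene remained, where clusters listed for SLC7A5P2 and SMG1P3 overlap. The 7 copies of mitochondrial genes together had 8 clusters and 212 reads, and MTND6P4, with the most reads of them (69) and named after its values were seen, had a replicate 1 log2 fold of −4.03.

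Pseudogenes whose best-matching parent is a gene of an abundant housekeeping mRNA were counted over families that were listed by name. Of them 15 were processed and 4 unprocessed. Ribosomal protein genes were the parents of 8 pseudogenes with 14 clusters and 78 reads, chaperone genes of 4 with 17 clusters and 62 reads, actin genes of 2 with 2 clusters and 8 reads, and translation factor genes of 2 with 2 clusters and 6 reads. The hnRNP, glycolysis and the nucleophosmin and HMG family had 1 each, with 8, 5 and 15 reads. None of these 19 pseudogenes had a peak, where 4.35% of all pseudogenes with a cluster had one, so the number is too small to set them apart. Of their 41 clusters 18 had a replicate 1 cluster, beside 34.4% of all pseudogene clusters.

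Of the unitary pseudogenes, THEM7P had the most reads, 767 in 4 clusters, which lie within 22 bp of chromosome 11 (chr11:32165336-32165357 in hg19) and had 14, 251, 251 and 251 reads. The 3 equal clusters adjoin, so the sum counts reads more than once. Its replicate 1 log2 folds were 0.34 to 0.83. AHSA2P, related to the HSP90 co-chaperone AHA1, had 365 reads in 13 clusters of 11 to 76 reads and 1 peak (chr2:61404816-61404889 in hg19, + strand, 41 reads) with a pooled log2 fold of 3.19 and a replicate 1 log2 fold of 2.65. PI4KAP2 had 278 reads in 20 clusters, a replicate 1 median of 1.93 and no peak. GENCODE lists it as unitary, although it matches the lipid kinase gene PI4KA at 97.8% over 687 aligned bases (17.7% of its transcript). PI4KA had 1394 reads in 90 clusters, a median of 1.87 and 3 peaks. Only 16.0% of the windows over the whole of PI4KAP2 occur once in hg38. Whether reads of other copies are among those at its clusters was not determined.

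A protein-coding parent was found for 272 of the 322 pseudogenes, by the best alignment of at least 100 bases to the longest transcript of each protein-coding gene. The best match need not be the ancestor, as for AHSA2P, where 325 aligned bases (4.91% of the transcript) matched HSD17B13. The median identity was 91.5% in processed and 93.8% in unprocessed pseudogenes. The median share of 75-base windows found once in hg38 was 98.2% in processed, 72.4% in unprocessed and 98.9% in unitary pseudogenes, and under 50% of the windows were unique in 53 of 195 unprocessed and 9 of 69 processed pseudogenes. In unprocessed pseudogenes a larger part of the sequence thus has a second copy in the genome, from which reads cannot be told apart.

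**Figure D5:**
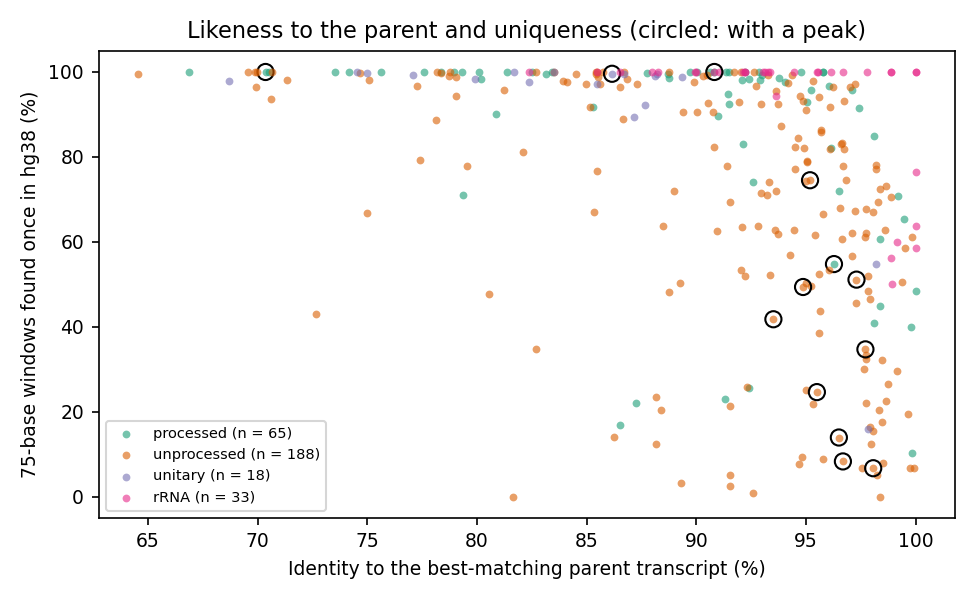
For each pseudogene with a match, the identity over the aligned bases to the best-matching parent transcript (5S rRNA for the rRNA class) is on the x axis. The share of its 75-base windows that occur once in hg38 is on the y axis. Both are in percent, with circles round pseudogenes with a peak. WASH7P is among the least unique (6.69%) of those circled, and MTCYBP36 has all its windows unique at an identity of 70.4%.

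Reads and peaks of pseudogene and parent were compared side by side. A parent had clusters of its own for 196 pseudogenes and more reads than the pseudogene for 147. A parent had a peak for 21 pseudogenes, of which 0 had one too, a number that cannot be set apart from the 4.35% of all pseudogenes with a peak. In 105 pairs where both had replicate 1 clusters, the median log2 fold was 1.00 in the pseudogenes and 1.75 in the parents, and it was higher in the pseudogene in 42. The Spearman correlation of the 2 folds was 0.35 over the 105 pairs, which share a library, the input and in part the same reads. A parent whose identifier was changed between annotations counts as without clusters.

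Some parents had several pseudogenes with clusters. GTF2I, a transcription factor gene, was the best match of 11, which had 142 reads in 30 clusters and no high fold. GUSB, the gene of beta-glucuronidase, had 6 with 257 reads, PMS2, a mismatch repair gene, 6 with 123 reads, SMG1 6 with 261 reads and PKD1 5 with 230 reads. The WASHC1 copies (5, with 208 reads) had 6 replicate 1 clusters past the rule, PKD1 copies 3, HERC2 copies 3 and SMG1 copies 1, whereas the copies of GUSB and PMS2 had 0. Peaks were found in copies of WASHC1 (2), DDX11 (2), SMG1, PKD1, SDHA and HERC2 (1 each). The other parents with at least 3 such pseudogenes, SEPTIN7 (4, with 224 reads), ANKRD20A1 (4), ANAPC1, BMS1, RPS2 and STAG3 (3 each), had copies with no replicate 1 cluster past the rule and no peak.

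Pseudogenes often lay within another gene of the same strand. In hg38, 169 of the 322 lie within a protein-coding or lncRNA gene, 42 within a protein-coding one, and for 43 unprocessed pseudogenes it is a lncRNA entry of the same name. In replicate 2, 270 of the 1712 clusters (15.8%) had an interval that was also listed for another gene, against 6.76% of all clusters. For 55 unprocessed pseudogenes, such as TPTEP1, the clusters were spread over a longer stretch than the v44 gene spans, so the gene model used for the clusters was longer. A read of a host transcript cannot be told apart from one of the pseudogene.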

How the data were processed

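The authors processed reads with the eCLIP-v0.4.0 pipeline, and the submitters' processing notes name cutadapt and STAR. Neither the genome build nor how reads with several matches were kept is given in the sources used here. Positions on chromosome 1 exceed its hg38 length and were taken as hg19, and no position was converted between builds. For replicate 1 clusters and reproducible peaks the authors deposited the log2 fold against the input and its −log10 p. For replicate 2 they deposited the peak caller's p-value, with gene and read number in the cluster's name. Replicates are numbered as in the sample descriptions.

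Gene types came from GENCODE v44, which lacked 449 of the 10872 genes. Intervals were overlapped with bedtools 2.31.1 and parents found with blastn 2.17.0 (e at most 1e-10). The overlaps, window counts and intervals were tested on simulated data. Intervals of shares are exact Clopper-Pearson or Newcombe 95%. The genes named were, per class (processed, unprocessed, other), the 5 with most reads, every pseudogene with a peak, the 10 with the largest replicate 1 log2 fold past the rule, and their parents. Parent families were taken by gene symbol, and RPS6K kinase and TUBGCP genes, which share the letters of ribosomal protein and tubulin genes, were left out after their values were seen. Members, lists and rules were chosen with earlier results of these data known. Some of the marker genes and sequences examined are not reported here.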

Additional observations from a re-analysis of the deposited data

How the results depend on the processing

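The share of pseudogene clusters with a replicate 1 cluster, 34.4%, was 29.4% when at least 50% of the cluster had to overlap, 0.0584% on the opposite strand, 84.8% for clusters with a replicate 2 p of at most 1e-10, and 44.1% with 1 cluster per gene. It was 35.5% for intervals listed for no gene of another type and 32.7% without rRNA pseudogenes, an alternative chosen after seeing the data. The difference between processed and unprocessed pseudogenes ran from −4.42 points without mitochondrial copies, also chosen after seeing the data, to 2.87 points for intervals listed for no gene of another type, and every interval included 0. Raising the limits to 4 for the log2 fold and 5 for the −log10 p left 1.71% of the replicate 1 clusters in place of 6.31%. Of the 20 peaks, 4 had a log2 fold of at least 4, 16 had a −log10 p of at least 5, and 20 held at an overlap of at least 50%. Of the 1687 intervals, 157 had a p of at most 1e-10. Without replicate 1 the number of pseudogenes was 322 in place of the 181 found in both, and without replicate 2 no value could be had, since replicate 1 names no genes. With alignments of at least 300 bases 226 in place of 272 pseudogenes had a parent. The median share of windows found in a coding transcript was 0% with 75 bases and 2.31% with 50 bases. No paired analysis was possible because 1 input and no second condition were given. Depth limits the shares, since 48.7% of the clusters had under 5 reads, and the intervals cover counting error only.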
